A study of Mus musculus with 20 samples.

Results

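Chromatin-associated RNA of 10 transcription regulator genes was followed over 24 h of IKZF1 induction in B3 cells. The genes are Ebf1 and Pax5, the E-protein genes Tcf3, Tcf4 and Tcf12, the ID genes Id1, Id2 and Id3, and the TCF/LEF genes Lef1 and Tcf7. They were chosen by name as regulators of B-lineage identity, and their symbols were matched to mouse Ensembl identifiers among the 56239 genes counted. All 10 were matched, and all 10 were among the 16601 genes that passed the filter on low counts.

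B3 is a mouse pre-B cell line. It had been transduced by retrovirus with Ikaros-ERt2, a fusion of the zinc-finger protein IKZF1 (Ikaros) with a modified estrogen receptor domain, and the methods describe the transduced cells as a GFP-sorted population. The fusion enters the nucleus when 4-hydroxytamoxifen (4-OHT) is added, and 500 nM was used. RNA bound to chromatin, which is rich in nascent transcripts, was sequenced at 0 h, 30 min, 1 h, 2 h, 6 h, 12 h, 15 h, 18 h, 21 h and 24 h, with 2 replicates at each time and 20 libraries in all. Every library comes from cells that carry Ikaros-ERt2, the ones at 0 h included, which are labelled as untreated. Libraries of cells without the fusion, of cells given 4-OHT without it and of cells given vehicle are not analysed here, so IKZF1 entry, 4-OHT itself and time in culture cannot be told apart. Each time point was compared with the same 2 libraries at 0 h, and these comparisons are therefore not independent. In the deposited counts, the labels of both libraries at 0 h carry a tag that those of other times lack. Its meaning is not given.

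EBF1 and PAX5 act together in committing lymphoid progenitors to the B lineage: EBF1 helps to open B-cell genes and to switch on Pax5, and PAX5 activates B-cell genes and represses genes of other lineages. The E proteins E2A (from Tcf3), E2-2 (from Tcf4) and HEB (from Tcf12) are helix-loop-helix factors that bind E-box sequences as dimers. ID proteins carry the same dimerization domain without a DNA-binding region, and they block E proteins by pairing with them. LEF1 and TCF1 (from Tcf7) are high-mobility-group factors that can act with beta-catenin in Wnt signalling. LEF1 is a known factor of pro-B and pre-B cells, and TCF1 is best known in T-cell development.

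Libraries held between 33296158 and 46868954 counts, and the median library held 40943260. Levels are given as CPM, a gene's counts relative to its library's total, after scaling with trimmed mean of M values (TMM) factors. A gene is said to rise or fall where its adjusted p-value was under 0.01 (edgeR), and to be called where the change was also more than 2-fold. The 8 B-progenitor markers include Ebf1 and Pax5, which are members themselves. The other 6 summed to between 57.5 and 237 CPM over the libraries, with 235 to 237 CPM at 0 h and 146 to 158 CPM at 24 h. Rag1 was at 0 counts in each library, and whether it shares reads with an overlapping gene was not checked. T-cell markers summed to at most 2.22 CPM, myeloid markers to at most 1.62 CPM, erythroid markers to at most 1.26 CPM and fibroblast markers to at most 0.0450 CPM. Counts give each gene's share of a library, so a change in RNA per cell and a change in the share of cells that express a gene cannot be told apart. The replicates at 12, 18 and 21 h differed more than the others: chi-square per degree of freedom between the counts of a pair was 9.95, 14.9 and 4.78 there, against 1.26 to 2.58 at the other times.

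Lef1, the 1 gene that had fallen at 30 min, and Pax5, which gained most of its rise late, are shown here by the 250 bases before their most upstream RefSeq transcript start (assembly GRCm38.p6). Each is written 5′ to 3′ on the strand of the gene. Capitals mark matches to GGGAA, the core of the sequence IKZF1 is known to bind, or to its complement.
Lef1 (chr3:131110047-131110296, plus strand): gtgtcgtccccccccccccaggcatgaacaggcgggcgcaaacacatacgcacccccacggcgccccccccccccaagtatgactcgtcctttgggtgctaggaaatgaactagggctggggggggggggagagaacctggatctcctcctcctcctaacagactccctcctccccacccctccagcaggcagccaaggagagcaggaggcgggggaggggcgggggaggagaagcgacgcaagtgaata
Pax5 (chr4:44710695-44710944, minus strand): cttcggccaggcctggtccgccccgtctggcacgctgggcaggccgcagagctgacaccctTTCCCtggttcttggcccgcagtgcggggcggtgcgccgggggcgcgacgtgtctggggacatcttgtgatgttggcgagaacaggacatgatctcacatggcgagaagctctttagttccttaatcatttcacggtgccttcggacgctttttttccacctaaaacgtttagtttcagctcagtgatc

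The Pax5 window held 1 match to GGGAA, which begins 189 bases before the start, and the Lef1 window held none. The paper counted the shorter motifs GGAA and GGGA on either strand, which were not counted here. GGGAA on either strand was found in 56.0% of 27025 RefSeq promoter windows of this length and in 3 of the 8 windows examined for the 10 genes (Pax5, Ebf1 and Tcf7). Windows of Id1 and Tcf4 were not examined. Motifs of EBF1 (TCCCNNGGGA), E proteins (CAGGTG) and TCF/LEF factors (CTTTGA), also searched on both strands, were found in 0.773%, 17.1% and 14.1% of all windows and in 0 of the 8. Such matches describe letters only, and a window without a match says nothing about binding by the factor.

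The genes changed at very different times. Reads were counted over whole genes, introns included, and gene spans ran from 1160 bases (Id1) to 390775 bases (Ebf1). How far span length shifts the times of change was not tested. Midpoints given below are linear interpolations between sampled times. Over the whole course all 10 had an adjusted p-value under 0.01, as did 88% of the genes tested. With the added condition of a fold change above 2 at any time point against 0 h, 6 of the 10 were called (Pax5, Id1, Id2, Id3, Lef1 and Tcf7), against 51.9% of all genes. Ebf1, Tcf3, Tcf4 and Tcf12 stayed within 2-fold of their level at 0 h throughout, although Tcf4 moved by more than that between 2 h and 24 h. Lef1 was called down at 8 of the 9 induced time points, Tcf7 down at 4 and Pax5 up at 4.

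**Figure D1:**
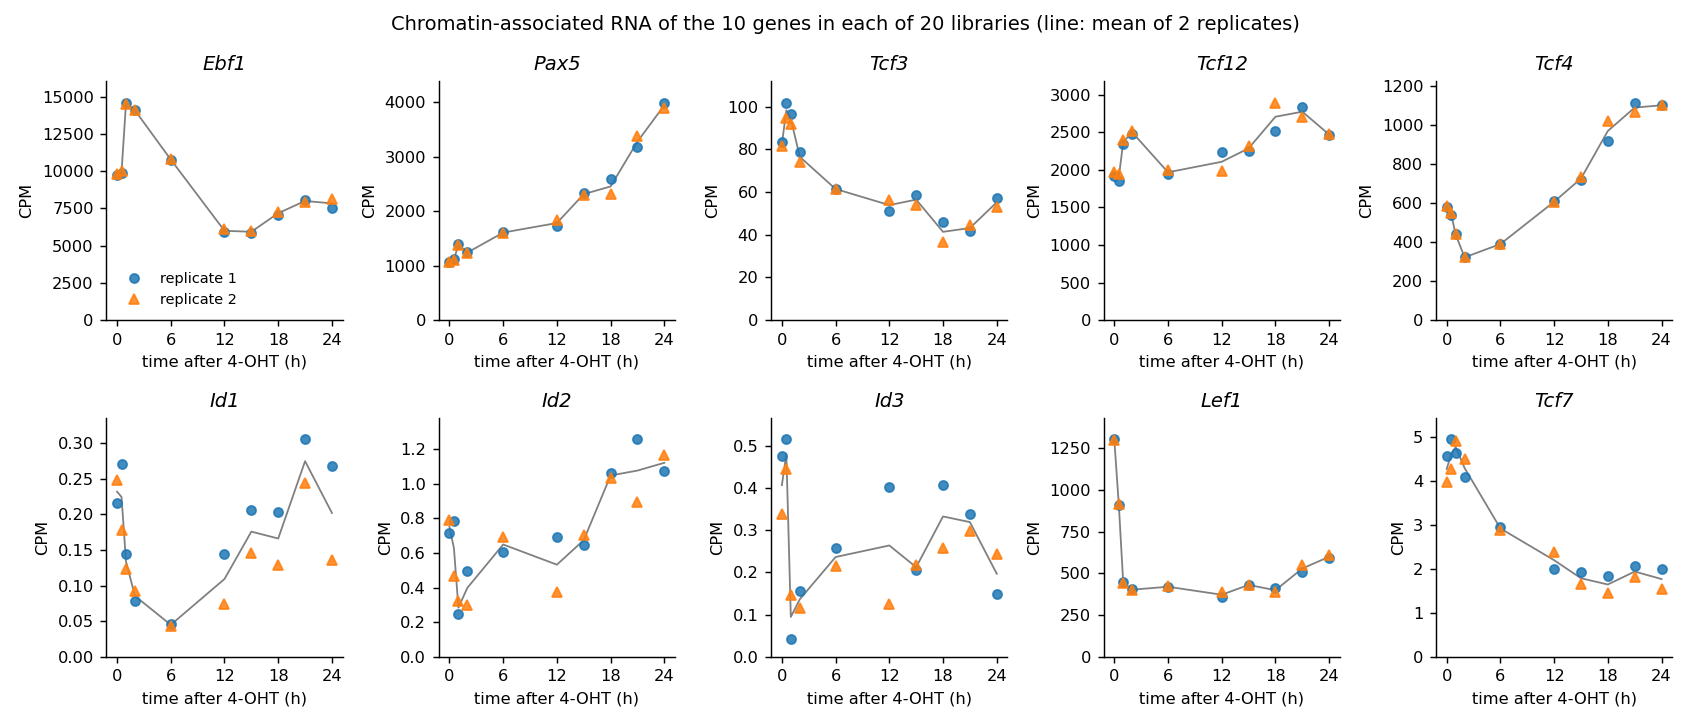
CPM of each of the 10 genes (y axis, linear, from 0) against hours after 4-OHT (x axis) in the 20 libraries. Circles are replicate 1, triangles replicate 2 and the line is their mean. Lef1 dropped within 1 h from 1303 and 1302 CPM to 447 and 440 CPM, Tcf4 dipped to 321 and 322 CPM at 2 h before rising, and Pax5 climbed to 3991 and 3900 CPM at 24 h.

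Early calls among the 10 genes were all falls. At 30 min 0 of the 10 were called, with 0.41% of all genes called down and 0.0542% called up. Lef1 alone had an adjusted p-value under 0.01 then, 2 genes were lower and 1 higher at an unadjusted p under 0.05, and DESeq2 called 0. At 1 h Id2, Id3 and Lef1 were called down and 0 genes up, against 4.84% of all genes down and 2.33% up. At 2 h Id3 and Lef1 were called down and 0 up, against 6.91% and 6.25%. At 6 h Id1 and Lef1 were called down and 0 up, against 9.13% and 10.9%. At an unadjusted p under 0.05, the genes higher than at 0 h numbered 4 at 1 h, 3 at 2 h and 2 at 6 h, and DESeq2 also called 0 up at these times.

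Later, Lef1 and Tcf7 were called down and Pax5 up. At 12 h only Lef1 was called, against 9.92% of all genes down and 13.2% up. The same 3 genes, Lef1 and Tcf7 down and Pax5 up, were called at every later time point. Of all genes, 13.1% were called down and 15.3% up at 15 h. These shares were 17.6% and 19.1% for 18 h, 19.4% and 20.1% for 21 h, and 20.1% and 20% for 24 h. The share of the 10 genes called at 24 h, 2 down and 1 up, was near that of all genes. Without the fold condition, 3 fell and 3 rose at 2 h (23.8% and 23.9% of all genes), and 4 fell and 3 rose at 24 h (36.1% and 35.4%). The median log2 change of the 10 genes was -0.48 at 2 h, where that of all genes tested was 0.026, and -0.27 at 24 h, where that of all genes was -0.011.

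Which changes had gone on and which had turned back was asked by comparing 24 h with 2 h and with 6 h. From 2 h to 24 h Pax5, Tcf4 and Id2 were called up and Tcf7 down, against 16.2% of all genes up and 16.6% down. From 6 h to 24 h Pax5, Tcf4 and Id1 were called up and 0 genes down, against 10.9% up and 12.8% down. In that comparison 2 genes, Ebf1 and Tcf7, were lower at an unadjusted p under 0.05, and DESeq2 called 0 down and 2 up.

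**Figure D2:**
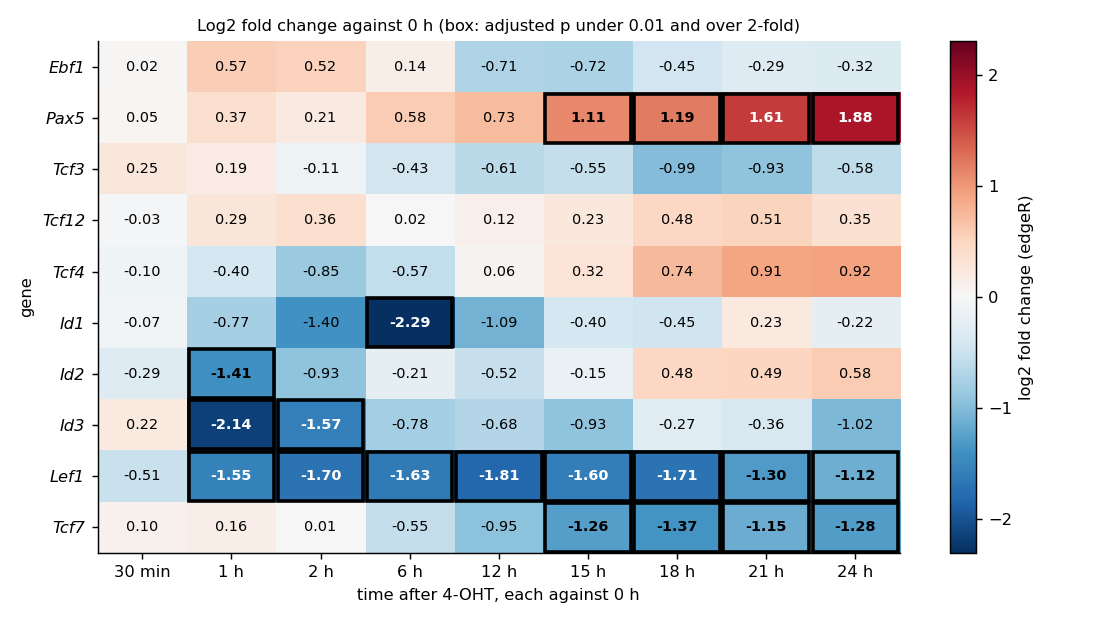
Log2 fold change against 0 h (colour and printed value, edgeR) for each gene (rows) at each of 9 times after 4-OHT (columns), with heavy boxes where the adjusted p-value was under 0.01 and the change over 2-fold. Boxes mark falls of Lef1 from 1 h on, falls of ID genes at 1 h to 6 h, and rises of Pax5 and falls of Tcf7 from 15 h on.

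Pax5 was higher than at 0 h from 1 h on and gained most late. Its gene (ENSMUSG00000014030) lies on the minus strand at chr4:44524757-44710487 (GRCm38). The replicates measured 1075 and 1073 CPM at 0 h, 1120 and 1105 CPM at 30 min, 1397 and 1376 CPM at 1 h, 1253 and 1227 CPM at 2 h, and 1613 and 1602 CPM at 6 h. They measured 1721 and 1846 CPM at 12 h, 2335 and 2291 CPM at 15 h, 2594 and 2316 CPM at 18 h, 3175 and 3384 CPM at 21 h, and 3991 and 3900 CPM at 24 h. From 30 min on, both replicates lay above both at 0 h, though the change at 30 min missed the threshold (log2 change 0.051, adjusted p = 0.520) and the level at 2 h was below that at 1 h. The mean was 1074 ± 1.54 CPM at 0 h and 3946 ± 64.5 CPM at 24 h (SD, n = 2), a log2 change of 1.88 (SE 0.044, adjusted p = 9.42e-20) or 3.67-fold. Most of the gain came after 6 h, since the level rose 2.45-fold from 6 h to 24 h (adjusted p = 1.07e-16) while the log2 change at 2 h was 0.21 (adjusted p = 3.12e-04). The mean reached the midpoint between its level at 0 h and its highest level after 18.2 h by linear interpolation, with 17.3 h for replicate 1 alone and 18.5 h for replicate 2 alone. Scaled by library totals in place of TMM, Pax5 had smaller log2 changes: 1.62 at 24 h against 0 h, and 1.03 from 6 h to 24 h.

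Ebf1 rose first and then fell below its starting level. The gene (ENSMUSG00000057098) lies on the plus strand at chr11:44617317-45008091. It measured 9752 and 9827 CPM at 0 h, 9883 and 10013 CPM at 30 min, 14589 and 14523 CPM at 1 h, 14079 and 14077 CPM at 2 h, and 10742 and 10810 CPM at 6 h. Both replicates at 1 h and at 2 h were above those at 0 h. The log2 change was 0.57 at 1 h (SE 0.032, adjusted p = 2.39e-12), or 1.49-fold, and the rise reached its midpoint at 44.5 min. Ebf1 then measured 5895 and 6096 CPM at 12 h, 5861 and 5994 CPM at 15 h, 7071 and 7287 CPM at 18 h, 8081 and 7909 CPM at 21 h, and 7554 and 8117 CPM at 24 h. All of these lay below 0 h, with the lowest mean at 15 h (log2 change -0.72, SE 0.032, adjusted p = 9.11e-15). At 24 h the level was 1.25-fold lower than at 0 h (log2 change -0.32, adjusted p = 5.86e-09) and 1.80-fold lower than at 2 h (log2 change -0.85, adjusted p = 4.71e-16). No change of Ebf1 against 0 h passed 2-fold. With library totals in place of TMM, the change from 2 h to 24 h was -1.12 and passed that limit.

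Per kilobase of gene span, Ebf1 and Pax5 thus came close together, with Pax5 slightly higher at 24 h. Reads in introns were counted, so levels of different genes are compared per kilobase of the whole gene span. On that scale Ebf1 stood at 25.1 ± 0.136 and Pax5 at 5.78 ± 0.00827 CPM per kb at 0 h (SD, n = 2), a ratio of 4.33 ± 0.0297. The ratio was 5.397 ± 0.0792 at 2 h, 3.19 ± 0.0300 at 6 h, 1.599 ± 0.0413 at 12 h and 0.944 ± 0.0634 at 24 h. At 24 h Pax5 stood at 21.2 ± 0.347 and Ebf1 at 20.1 ± 1.02 CPM per kb. Their difference was smaller than the sum of the SDs. Both replicates of Pax5 (21.5 and 21.0) still lay above both of Ebf1 (19.3 and 20.8). Per kilobase of exon the order differed, with Ebf1 at 803 and Pax5 at 446 CPM per kb at 24 h.

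**Figure D3:**
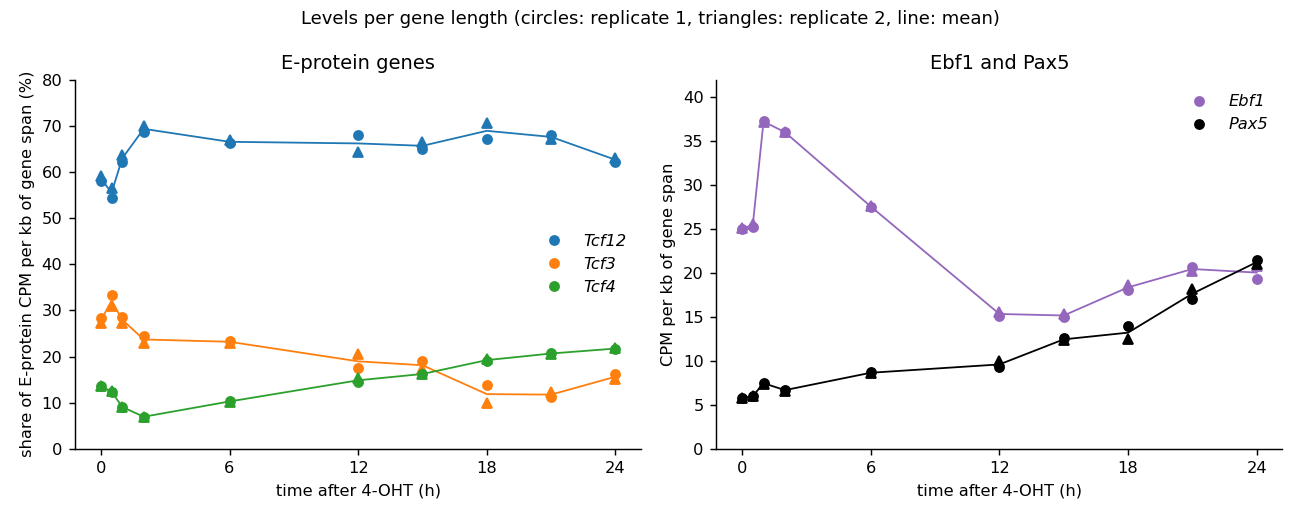
Left, share of the summed E-protein CPM per kb of gene span (percent, y axis) held by Tcf12, Tcf3 and Tcf4 against hours after 4-OHT, and right, CPM per kb of gene span of Ebf1 and Pax5. Circles are replicate 1, triangles replicate 2 and lines their means. Tcf4 passed Tcf3 in share between 15 h and 18 h, ending at 21.7% against 15.6%. The lines of Ebf1 and Pax5 crossed between 21 h and 24 h.

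Among the E-protein genes, Tcf4 changed in both directions. Tcf4 (ENSMUSG00000053477, chr18:69343356-69689079, plus strand) encodes E2-2, an E protein also known for its part in plasmacytoid dendritic cells. It measured 578 and 582 CPM at 0 h, 537 and 548 CPM at 30 min, 438 and 438 CPM at 1 h, 321 and 322 CPM at 2 h, and 388 and 390 CPM at 6 h. It measured 608 and 603 CPM at 12 h, 719 and 730 CPM at 15 h, 919 and 1018 CPM at 18 h, 1112 and 1063 CPM at 21 h, and 1100 and 1100 CPM at 24 h. All libraries from 30 min to 6 h lay below both at 0 h, and all from 12 h on lay above both. The log2 change was -0.85 at 2 h (SE 0.038, adjusted p = 3.95e-14) and 0.92 at 24 h (SE 0.038, adjusted p = 1.46e-15), and neither passed 2-fold. Between those times Tcf4 rose 3.42-fold (log2 change 1.78, SE 0.039, adjusted p = 4.65e-20). Scaled by library totals in place of TMM, that log2 change was 1.51. The fall reached its midpoint at 56.5 min.

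Tcf3 fell from 6 h on. Tcf3 (ENSMUSG00000020167, chr10:80409514-80433647, minus strand) encodes E12 and E47 of E2A, which B-cell development requires. Its level was 83.6 and 81.4 CPM at 0 h, 102 and 94.9 CPM at 30 min, 96.6 and 92.0 CPM at 1 h, 79.0 and 74.1 CPM at 2 h, and 61.6 and 61.3 CPM at 6 h. It was 51.3 and 56.5 CPM at 12 h, 58.9 and 54.1 CPM at 15 h, 46.1 and 36.6 CPM at 18 h, 41.6 and 44.7 CPM at 21 h, and 57.3 and 53.1 CPM at 24 h. The libraries at 30 min and 1 h were above those at 0 h, with log2 changes of 0.25 (adjusted p = 0.0222) and 0.19 (adjusted p = 0.0349) that missed the threshold. The fall was 1.34-fold at 6 h (log2 change -0.43, adjusted p = 3.39e-05) and 1.99-fold at 18 h (log2 change -0.99, SE 0.077, adjusted p = 1.14e-10), where the replicates lay apart. At 24 h the log2 change was -0.58 (SE 0.076, adjusted p = 4.80e-07). With library totals Tcf3 was called down at 18 h (log2 change -1.12) and at 21 h (-1.17).

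Tcf12 moved least among the E-protein genes. Tcf12 (ENSMUSG00000032228, chr9:71842688-72111871, minus strand) encodes HEB, a partner of E2A in lymphoid progenitors. Its replicates measured 1914 and 1970 CPM at 0 h, 2339 and 2401 CPM at 1 h, 2475 and 2520 CPM at 2 h, 1941 and 1992 CPM at 6 h, 2519 and 2891 CPM at 18 h, and 2465 and 2471 CPM at 24 h. The log2 change was 0.36 at 2 h (SE 0.052, adjusted p = 4.12e-06), 0.018 at 6 h (adjusted p = 0.778), where the libraries overlapped those at 0 h, and 0.35 at 24 h (adjusted p = 3.76e-06). With library totals in place of TMM the change at 24 h was 0.088 (adjusted p = 0.0724).

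The makeup of the summed E-protein level shifted. The sum was 12.3 ± 0.0922 CPM per kb of gene span at 0 h, 13.4 ± 0.0258 at 2 h and 14.6 ± 0.110 at 24 h (SD, n = 2). Of it, Tcf12 held 58.6 ± 0.749%, Tcf3 27.8 ± 0.712% and Tcf4 13.6 ± 0.0369% at 0 h. At 2 h the shares were 69.4 ± 1.01%, 23.7 ± 1.04% and 6.94 ± 0.0261%, and at 24 h they were 62.6 ± 0.568%, 15.6 ± 0.730% and 21.7 ± 0.162%. Tcf4 thus passed Tcf3 by 24 h on this scale. Per kilobase of exon Tcf3 and Tcf4 started level (12.3 ± 0.389% and 12.7 ± 0.112% at 0 h) and ended at 6.42 ± 0.334% and 18.9 ± 0.0432%. Shares within a library do not depend on its scaling, but the sums do. Scaled by library totals, the log2 changes at 24 h were 0.088 for Tcf12, -0.84 for Tcf3 and 0.67 for Tcf4. Under TMM they were 0.35, -0.58 and 0.92. The sum under library totals was not computed.

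The ID genes had few counts, which set the precision. Id1 had 2 to 11 counts per library, Id2 had 12 to 47 and Id3 had 2 to 22. Id1 (ENSMUSG00000042745) lies at chr2:152736251-152737410, Id2 (ENSMUSG00000020644) at chr12:25093799-25097140 and Id3 (ENSMUSG00000007872) at chr4:136143497-136145755, and no annotated gene overlaps any of them. Their summed level was 1.39 ± 0.0217 CPM at 0 h, 0.512 ± 0.110 CPM at 1 h, 0.620 ± 0.157 CPM at 2 h, 0.929 ± 0.0269 CPM at 6 h and 1.52 ± 0.0395 CPM at 24 h (SD, n = 2). The sums rest on 65 and 61 counts at 0 h and on 50 and 57 counts at 24 h. An SD of 2 libraries can understate the counting error, and the difference between these times was not tested.

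Id3, an inhibitor of E proteins that is induced by antigen-receptor signalling, dropped at 1 h. It had 22 and 15 counts at 0 h, 19 and 20 counts at 30 min, 2 and 6 counts at 1 h, 6 and 5 counts at 2 h, 11 and 10 counts at 6 h, and 5 and 9 counts at 24 h. The libraries at 1 h and 2 h lay below those at 0 h, while those at 12, 18 and 21 h overlapped them in CPM. From 8 counts at 1 h against 37 at 0 h, the level at 0 h was 4.54-fold higher (95% exact binomial interval 2.08 to 11.3), with a fitted log2 change of -2.14 (SE 0.52, adjusted p = 0.00176). At 2 h the log2 change was -1.57 (SE 0.49, adjusted p = 0.00855), which DESeq2 put at an adjusted p of 0.0407. At 24 h it was -1.02 (SE 0.46, adjusted p = 0.0488), which missed the threshold.

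Id2, known from innate lymphoid and natural killer cells, also dropped at 1 h, and at 6 h its log2 change against 0 h was -0.21 (adjusted p = 0.525). It had 33 and 35 counts at 0 h, 29 and 21 counts at 30 min, 12 and 13 counts at 1 h, 19 and 13 counts at 2 h, 26 and 32 counts at 6 h, and 36 and 43 counts at 24 h. The 25 counts at 1 h against 68 at 0 h gave a level 2.67-fold higher at 0 h (95% exact binomial interval 1.67 to 4.41), with a log2 change of -1.41 (SE 0.33, adjusted p = 0.00141). From 2 h to 24 h it rose 2.84-fold (log2 change 1.51, SE 0.30, adjusted p = 1.32e-04). Against 0 h its log2 change at 24 h was 0.58 (SE 0.26, adjusted p = 0.0445).

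Id1, a classic target of bone morphogenetic protein (BMP) signalling, was lowest at 6 h. It had 10 and 11 counts at 0 h, 7 and 5 counts at 1 h, 3 and 4 counts at 2 h, 2 and 2 counts at 6 h, 5 and 3 counts at 12 h, and 9 and 5 counts at 24 h. The 4 counts at 6 h against 21 at 0 h gave a level 5.16-fold higher at 0 h (95% exact binomial interval 1.74 to 20.7), with a log2 change of -2.29 (SE 0.57, adjusted p = 0.00130). From 6 h to 24 h the log2 change was 2.08 (SE 0.62, adjusted p = 0.00617), from 4 counts to 14. DESeq2 gave adjusted p-values of 0.0206 for the fall and 0.0387 for the rise, so neither was called by it, and with library totals the rise was not called either. At 24 h the libraries overlapped those at 0 h (log2 change -0.22, adjusted p = 0.690). These intervals cover counting error only. The number of ID calls at each early time rested on single libraries: the genes called down at 1 h numbered 1 instead of 3 without 1 h replicate 1, and those at 6 h numbered 1 instead of 2 without 6 h replicate 2. The call of Id3 at 2 h was lost without any 1 of 12 libraries, namely both replicates at 0 h, 30 min, 2 h, 6 h, 15 h and 21 h, with adjusted p-values from 0.0101 to 0.0808.

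Lef1 was the only 1 of the 10 genes to fall at 30 min, and it stayed low. Lef1 (ENSMUSG00000027985) lies on the plus strand at chr3:131110471-131224356. It measured 1303 and 1302 CPM at 0 h, 913 and 919 CPM at 30 min, 447 and 440 CPM at 1 h, 405 and 399 CPM at 2 h, and 416 and 424 CPM at 6 h. It measured 358 and 387 CPM at 12 h, 432 and 430 CPM at 15 h, 411 and 388 CPM at 18 h, 506 and 553 CPM at 21 h, and 591 and 609 CPM at 24 h. Each library after 0 h lay below both at 0 h. The fall was 1.42-fold at 30 min (log2 change -0.51, SE 0.041, adjusted p = 1.72e-08), 2.94-fold at 1 h (log2 change -1.55, SE 0.042, adjusted p = 2.66e-17) and 3.24-fold at 2 h (log2 change -1.70, adjusted p = 2.25e-18). It reached its midpoint at 35.0 min (35.3 min and 34.7 min in replicates 1 and 2). From 2 h to 24 h Lef1 rose 1.49-fold (log2 change 0.58, SE 0.042, adjusted p = 4.09e-11), and at 24 h it was still 2.17-fold below 0 h (log2 change -1.12, adjusted p = 2.50e-16).

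An annotated antisense gene within the Lef1 locus, Gm43352, had 106 and 101 counts at 0 h, 55 and 51 counts at 30 min, 17 and 18 counts at 2 h, and 17 and 26 counts at 24 h. The kit marks strand, but the strand setting of the counting is not given in the sources used here, so reads of Lef1 and Gm43352 cannot be told apart for certain. Lef1 itself had 60320 and 57841 counts at 0 h. Of 21 annotated genes that overlap any of the 10 genes, 20 were matched to the count table, and 1, Gm26551 on the strand of Tcf7, was not analysed here. Of the 20, 18 had 0 counts in every library, and the antisense gene of Tcf7, A630014C17Rik, had at most 2. How reads shared between genes were treated is not given, so these zeros need not mean absent transcripts.

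Tcf7 fell later and from a low level. Tcf7 (ENSMUSG00000000782) lies on the minus strand at chr11:52252371-52283014. It measured 4.58 and 3.98 CPM at 0 h, 4.95 and 4.28 CPM at 30 min, 4.65 and 4.91 CPM at 1 h, 4.10 and 4.51 CPM at 2 h, and 2.96 and 2.89 CPM at 6 h. It measured 2.01 and 2.39 CPM at 12 h, 1.93 and 1.65 CPM at 15 h, 1.85 and 1.45 CPM at 18 h, 2.07 and 1.82 CPM at 21 h, and 2.00 and 1.55 CPM at 24 h. The libraries at 30 min and 2 h overlapped those at 0 h, and all from 6 h on lay below them. The log2 change was 0.0088 at 2 h (adjusted p = 0.959), -0.55 at 6 h (SE 0.13, adjusted p = 6.79e-04) and -1.28 at 24 h (SE 0.15, adjusted p = 8.67e-08), a 2.43-fold fall. Counts went from 212 and 177 at 0 h to 67 and 57 at 24 h. The fall reached its midpoint at 5.89 h, with 5.12 h for replicate 1 alone and 8.09 h for replicate 2 alone. At 12 h the log2 change was -0.95, and the number of genes called down at that time was 2 instead of 1 without 0 h replicate 2 or without 12 h replicate 2. Changes of Lef1 and Tcf7 from 2 h to 24 h ran in opposite directions, since Tcf7 fell 2.44-fold over that time (log2 change -1.29, adjusted p = 1.14e-07).

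The order of the 10 genes per kilobase of gene span changed between 0 h and 24 h. At 0 h it ran Ebf1 (25.1 CPM per kb), Lef1 (11.4), Tcf12 (7.21), Pax5 (5.78), Tcf3 (3.42), Tcf4 (1.68), Id2 (0.225), Id1 (0.200), Id3 (0.180) and Tcf7 (0.140). Neighbours among Id2, Id1, Id3 and Tcf7 at 0 h differed by less than the sum of their SDs. At 24 h it ran Pax5 (21.2), Ebf1 (20.1), Tcf12 (9.17), Lef1 (5.27), Tcf4 (3.18), Tcf3 (2.29), Id2 (0.335), Id1 (0.174), Id3 (0.0870) and Tcf7 (0.0578). There the same was true of Pax5 and Ebf1, of Id1 and Id3, and of Id3 and Tcf7. Per kilobase of exon, Tcf7 stood above all ID genes at both times, with 1.63 CPM per kb at 0 h and 0.675 CPM per kb at 24 h.

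Genes that these factors are known to control were examined as lists, by the counts called and the median. Of all genes tested, 6.91% were called down and 6.25% up at 2 h, which became 20.1% and 20% at 24 h, with medians of 0.026 for 2 h and -0.011 for 24 h. More B-lineage genes known to be activated by PAX5, EBF1 or E proteins were called up at 24 h than down. Of 16 tested among 18 listed, 4 were called down and 2 up at 2 h (median log2 change -0.29), and 3 down and 9 up at 24 h (median 1.14), where 20.1% of all genes were called down and 20% up. Blnk, a pre-B cell receptor adaptor, measured 25.2 and 24.9 CPM at 0 h, 9.55 and 9.32 CPM at 2 h, and 528 and 496 CPM at 24 h. It fell at 2 h (log2 change -1.41, adjusted p = 7.05e-14) and rose by 24 h (4.35, SE 0.053, adjusted p = 2.96e-24). The 3 called down at 24 h were Igll1, Vpreb1 and Vpreb3, of which Igll1 and Vpreb1 encode the surrogate light chain. The paper names Igll1 and Vpreb1 among its fast-repressed genes, as IKZF1 targets already characterized. Igll1 went from 167 and 170 CPM at 0 h to 10.6 and 9.53 CPM at 2 h and 1.07 and 0.895 CPM at 24 h, a log2 change of -7.42 (SE 0.097, adjusted p = 9.12e-24). The list's other 2, Rag1 and Rag2, had 0 counts in every library. Whether they overlap another annotated gene was not checked. How reads shared between genes were treated is not given, so these zeros need not mean absent transcripts.

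Genes known to be repressed by PAX5 formed the next list. Of 9 tested among 11 listed, 3 were called down and 1 up at 2 h (median -0.62), and 5 down and 1 up at 24 h (median -1.52), against 6.91% of all genes down and 6.25% up at 2 h and 20.1% and 20% at 24 h. The 5 called down were Ccr2, Grap2, Ccl9, Notch1 and Csf1r, and the 1 called up was Flt3. Of these, Ccl9 and Csf1r were low, averaging 0.173 and 0.721 CPM. Among the 3 not called, Sdc4 rose (log2 change 0.64, edgeR's adjusted p = 1.36e-09) and Cd28 fell (-0.39, adjusted p = 1.39e-04), each by less than 2-fold. Ccl3 missed the threshold (-0.14, adjusted p = 0.564). Ccr2, a chemokine receptor gene, had 1354 and 1291 counts at 0 h, 465 and 476 counts at 2 h, and 1 and 1 counts at 24 h. Its level at 0 h was 1026-fold that at 24 h, with a 95% exact binomial interval from 284 to 8478. Flt3, a receptor of early progenitors, went from 51 and 55 counts at 0 h to 2075 and 1741 counts at 24 h, or 61.9 and 47.2 CPM at 24 h (log2 change 5.54, SE 0.15, adjusted p = 8.99e-19), opposite to the direction the list's name gives. Csf1r is also 1 of the 6 myeloid markers, whose sum went from between 1.42 and 1.62 CPM at 0 h to between 0.328 and 0.543 CPM at 24 h, and whose part in this list's count was not tested.

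Few other helix-loop-helix partners had enough counts to be tested. Of 9 listed, 4 were tested, and Id4, Lyl1 and Msc had 0 counts in every library. If these zeros came from sampling alone, they would allow up to 3 counts in each library. Overlaps of these genes with others were not checked, so the zeros need not mean absent transcripts. At 2 h 1 was called down and 2 up, and at 24 h 2 down and 1 up, with medians of 0.16 and -0.73. With 4 genes tested, these counts are too small to be read against the 20.1% of all genes called down and 20% called up at 24 h. Tal1, whose product pairs with E proteins in erythroid and stem cells, went from 6.48 and 5.63 CPM at 0 h to 0.496 and 0.439 CPM at 2 h and 0.149 and 0.109 CPM at 24 h (log2 change -5.53, SE 0.29, adjusted p = 1.11e-13). Bhlhe41, a repressor of E-box genes, went from 2.53 and 2.43 CPM at 0 h to 15.2 and 15.4 CPM at 24 h (log2 change 2.62, SE 0.10, adjusted p = 4.99e-16).

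Paralogs and cofactors of EBF1 and of the TCF/LEF factors were examined together. Of 12 tested among 17 listed, 1 was called down and 2 up at 2 h (median -0.22), and 1 down and 3 up at 24 h (median 0.31). For all genes the shares at 2 h were 6.91% down and 6.25% up, and those at 24 h were 20.1% and 20%. Tcf7l1, the gene of TCF3 of the TCF/LEF family and not of E2A, had 14 and 12 counts at 0 h, 31 and 39 counts at 2 h, and 273 and 260 counts at 24 h (log2 change 4.71, SE 0.21, adjusted p = 8.23e-15). Zfp423, an EBF1 inhibitor and the 1 called down, had 20 counts at 0 h over both replicates and 2 at 24 h. Ebf4 and Tle2 were the others called up. With library totals the number called down at 24 h was 3, and with DESeq2 it was 0.

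Among 6 tested of 11 listed genes that TCF/LEF factors are known to activate, 3 were called down and 0 up at 2 h (median -0.69). At 24 h 4 were called down and 0 up (median -1.46). Of all genes, 6.91% were called down and 6.25% up at 2 h, and 20.1% and 20% at 24 h. With 6 genes tested, these counts are small. The genes called down at 24 h were Myc, Znrf3, Ccnd1 and Rnf43, of which Znrf3 and Rnf43 encode Wnt-receptor ubiquitin ligases. The paper names Myc and Ccnd1 among genes repressed fast after IKZF1 induction, and a link of this list to Lef1 was not tested. Myc, a growth regulator that many other factors also control, went from 63.6 and 62.1 CPM at 0 h to 27.5 and 26.7 CPM at 2 h and 5.55 and 4.40 CPM at 24 h (log2 change -3.67, SE 0.12, adjusted p = 1.54e-17). Of the 2 tested genes not called, Lgr5 was higher at an adjusted p of 0.0421, and Nkd2 had fallen by less than 2-fold (adjusted p = 0.00604). Axin2, commonly used as a reporter of this pathway, had at most 1 count in any library.

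**Figure D4:**
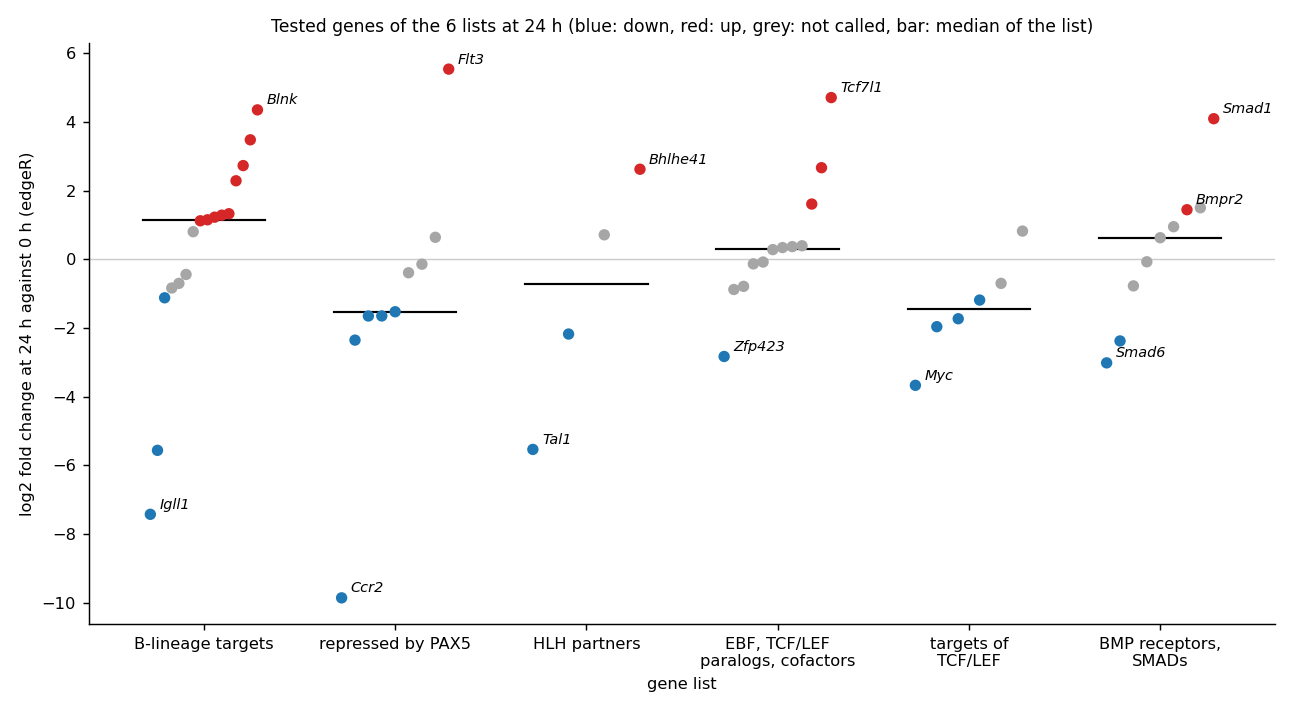
Log2 fold change at 24 h against 0 h (y axis, edgeR) of the tested genes in 6 lists (x axis), with each dot a gene, blue where called down, red where called up and grey where not called, and a bar at the list's median. The bars stand at 1.14 for B-lineage genes, -1.52 for genes repressed by PAX5, -0.73 for helix-loop-helix partners, 0.31 for paralogs and cofactors, -1.46 for genes activated by TCF/LEF factors and 0.63 for BMP receptors and SMADs.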

How the data were processed

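Chromatin-associated RNA-seq of 20 B3 libraries was analysed. The authors used nf-core/rnaseq with STAR for alignment to the mm10 build, assigned reads to genes with featureCounts, introns included, and deposited raw counts that were not normalized. The submitters' processing notes name CASAVA 2.17, featureCounts and GRCm38. The annotation release, the strand setting and the treatment of reads shared between genes are not given in the sources used here.

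Groups came from the sample titles. A gene needed 10 or more counts in 2 or more libraries to be tested, by edgeR 4.0.16 in R 4.3.3 (TMM, quasi-likelihood F test on a factor of time points, all 20 libraries), with Benjamini-Hochberg adjustment over all genes tested in each comparison. The standard error is the log2 change divided by the square root of F. Called genes had an adjusted p-value under 0.01 and a change above 2-fold. Total counts are given in the report, and the depth limits only genes of few counts. Intervals of summed counts are exact (Clopper-Pearson, scipy 1.17.1) and cover counting error only, since no molecular identifiers were used. Titles number the replicates, but nothing says that they are separate cultures, so p-values measure the spread between these samples, which may be technical. Gene positions came from GENCODE M21, which holds 55240 of the 56239 identifiers, and promoter sequences from RefSeq. The script was tested on simulated counts.

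The genes and lists were chosen with earlier results of these data known. All 10 genes are named. From each list, the gene called down with the most negative and the gene called up with the most positive change at 24 h are named among those averaging at least 1 CPM, and others only where a count of 5 or fewer is given by name. The alternatives tried were library totals, size factors of DESeq2, no filter, at least 10 counts in every library, DESeq2 1.42.0, an adjusted p-value under 0.05, a test against a 2-fold change, a replicate block, a model of only the 4 libraries compared, exon lengths, and leaving out each library. Leaving out all libraries at 12, 18 and 21 h was added after seeing the data. The study's other assays were not used here.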

Additional observations from a re-analysis of the deposited data

Results flagged for a closer look

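Changes of 3 genes ran in opposite directions at 2 h and at 24 h, and the difference between those times passed edgeR's quasi-likelihood test. Tcf4 was 0.85 lower on the log2 scale at 2 h and 0.92 higher at 24 h than at 0 h, a difference of 1.78 (adjusted p = 4.65e-20), with both replicates lower at 2 h and both higher at 24 h. For Id2 the log2 changes were -0.93 (adjusted p = 0.0158) and 0.58 (adjusted p = 0.0445), and the difference was 1.51 (adjusted p = 1.32e-04), from 32 counts at 2 h and 79 at 24 h. For Tcf7 the difference was -1.29 (adjusted p = 1.14e-07), but its change at 2 h was 0.0088 with overlapping libraries, so only the fall at 24 h was beyond the spread.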

How the results depend on the processing

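Under DESeq2's size factors, library totals, DESeq2, the replicate block and models of 4 libraries, no gene of the 10 with an adjusted p-value under 0.01 turned direction. With library totals in place of TMM, the median log2 change of all genes at 24 h moved from -0.011 to -0.27, and the genes called went from 3329 down and 3323 up (50.05% down) to 4260 down and 2603 up (62.1% down). Under those totals 2 of the 10 genes were called down from 2 h to 24 h instead of 1 (Ebf1 was added), and 3 paralogs and cofactors at 24 h instead of 1. With at least 10 counts in every library, and also with DESeq2, 1 of the 10 was called down at 2 h and 1 at 6 h, since low ID genes left the test or missed its threshold, and DESeq2 called 0 paralogs and cofactors down at 24 h. Tested against a 2-fold change itself, 1 was called down at each of 1, 2, 6, 15, 18, 21 and 24 h, 0 down from 2 h to 24 h, and 0 up at 15 h. Of the 16601 genes tested, that test called 331, 661, 846, 1249, 1877, 2196 and 2366 down at those times, in order. It called 1745 down from 2 h to 24 h and 1647 up at 15 h.

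Leaving out each library in turn gave 1 to 3 genes down at 1 h, 1 to 2 at 2 h, 1 to 2 at 6 h and 1 to 2 at 12 h. The log2 change of Tcf7 at 2 h ran from -0.088 to 0.11, and that of Id1 at 24 h from -0.76 to 0.21, neither past the test in any of these. The cause was not tested. Without the libraries at 12, 18 and 21 h, 5 of the 10 genes were called over the course instead of 6.

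Same-numbered replicates did not deviate in a constant direction: over 45 pairs of time points and 12056 genes the correlation of their deviations averaged -0.00032, from -0.45 to 0.25. Single pairs did correlate, in either direction, and a mean of signed values does not show such shared deviations. With the replicate block, 6 of the 10 genes were called over the course, as without it, and the block moved no count at any time point. Depth limits the ID genes, with 2 to 47 counts per library, and small changes in them were not detectable at this depth.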

Other observations

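BMP receptor and SMAD genes were listed because ID genes are known targets of that pathway. Of 9 tested among 11 listed, 1 was called down and 1 up at 2 h (median log2 change 0.27), and 2 down and 2 up at 24 h (median 0.63, against -0.011 over all genes tested). At 24 h 20.1% of all genes were called down and 20% up, so these counts are near the share of all genes. Bmpr2, a type II BMP receptor gene, measured 65.5 and 68.1 CPM at 0 h, 65.1 and 64.3 CPM at 2 h, and 180 and 184 CPM at 24 h (log2 change at 24 h 1.45, SE 0.048, edgeR's adjusted p = 3.94e-17). The other called genes at 24 h were low: Smad1 had 2 counts at 0 h and 30 at 24 h over both replicates, Acvrl1 had 34 and 34 counts at 0 h and 4 and 6 at 24 h, and the inhibitory Smad6 had 54 counts at 0 h and 5 at 24 h. At 2 h the gene called down was Acvrl1 and the gene called up was Bmpr1b, which had 1 and 2 counts at 0 h.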
